A study of Mus musculus with 30 samples.

Results

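Cadherins and protocadherins were followed through postnatal development of the mouse primary visual cortex (V1). The members were the probe sets with a single annotated gene symbol that begins with Cdh and a digit, or with Pcdh. There were 60 of them for 30 genes, among 36899 probe sets for 15965 genes, with 20 on each of the array types MG-U74Av2, Bv2 and Cv2, called chips A, B and C. The cadherins made up 31 probe sets for 17 genes, and the protocadherins 29 probe sets for 13 genes. Another 8 probe sets carried several symbols, all of the protocadherin alpha cluster, and were not analysed here. Pcdh8, Pcdh20 and the genes of the alpha and gamma clusters had no member probe set.

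V1 was dissected from mice under standard rearing at postnatal day 14 (P14, about the time of eye opening), day 28 (P28, within the window in which closing an eye shifts ocular dominance) and day 60 (P60, young adult). The P14 and P28 groups held 3 litters each and the P60 group held 4, and RNA of every litter was put on all 3 chips, which gave 30 arrays. The strain, the sex and the number of animals behind a litter sample are not given in the sources used here, and the labels name no mutation or treatment. The values are MAS5 signals, the summary brightness of a probe set on a linear scale after each array was scaled to the same trimmed mean. Values below are listed in the order of the litter numbers at each age. Litters of different ages are different samples, and the p-values measure the spread between these litters.

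Cadherins are calcium-dependent adhesion proteins that bind partners of their own kind across the gap between cells. In classical cadherins the tail inside the cell holds catenins, which tie the contact to actin, and type I and type II members differ in the outermost domain that makes the bond. In the cortex they are known for sorting neurons into layers and areas and for building and stabilising synapses. Protocadherins have more of the same extracellular repeats but other tails. The clustered genes give each neuron a combination of surface proteins used to tell its own branches from those of others, and the delta group, whose genes lie alone in the genome, is known for area-specific and layer-specific patterns in the brain.

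As a measure of background, the 95th percentile of 15 probe sets for Bacillus transcripts, which no mouse RNA should bind, came to 98.4 for chip A, 153 for B and 252 for C. This is called the bacterial level below. Of the 60 members, 41 had a mean above it at 1 age or more, which was 68.3% against 64.0% of all probe sets. All 10 litters were above it for 25 members of 17 genes, and no litter was for 12 members. The share with a mean above the level at 1 age or more was 74.2% for cadherins and 62.1% for protocadherins. Both probe sets of Cdh11, a type II cadherin given as a marker of the group, were above it in every litter. All 6 neuronal marker genes checked (among them Snap25, Syt1 and Slc17a7) were also above it at 1 age or more, as were 3 of the 4 markers of neocortical excitatory neurons on the arrays (5 were listed).

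**Figure D1:**
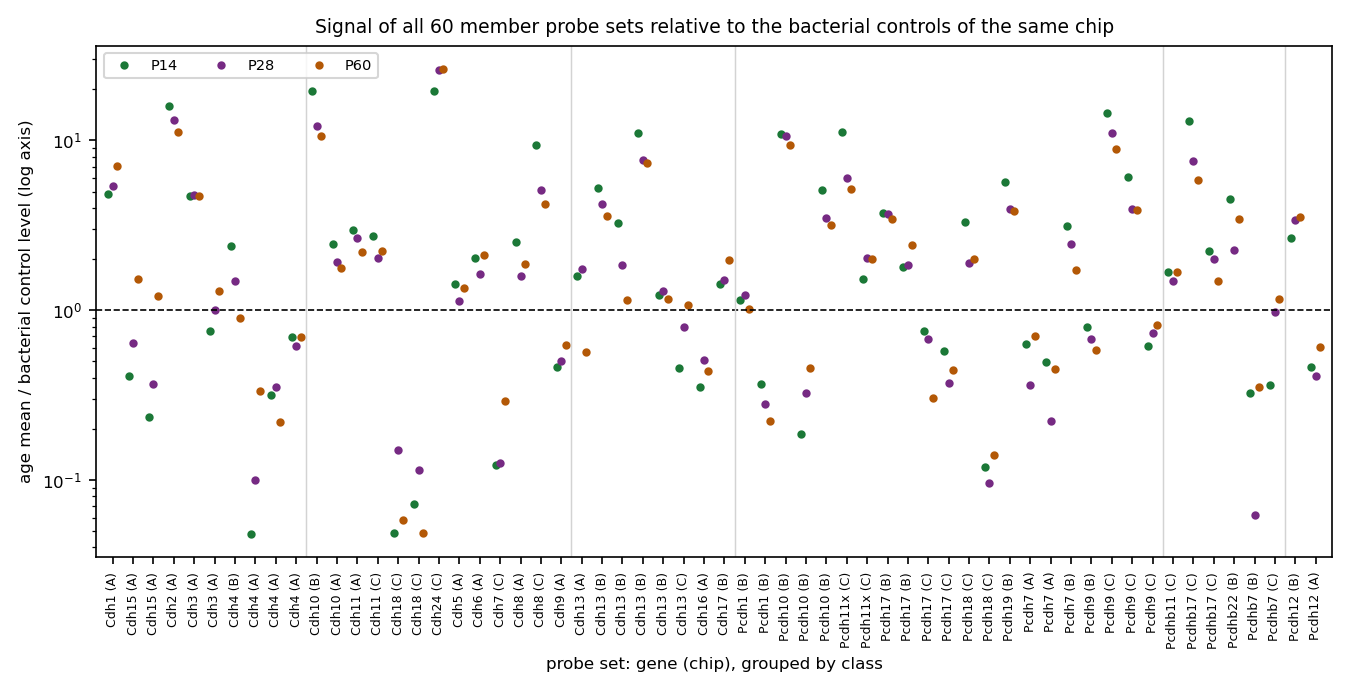
Age means of all 60 member probe sets (horizontal axis: gene and chip, grouped by class), divided by the bacterial level of the same chip (vertical axis, log scale; dashed line at the bacterial level itself). Each dot is the mean of the litters of 1 age, with no error shown. For 41 probe sets at least 1 dot lies above the line, and heights of different probe sets are not comparable with each other.

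The arrays were not of even quality, and this touched several members. On the 3 arrays of P14 litter 1 the ratio of 3' to 5' probe sets was 9.57 to 12.2 for Gapdh and 12.2 to 12.8 for Actb, against 0.741 to 1.32 and 1.04 to 1.5 on the other 27 arrays. Values are therefore also given without that litter, and for a restricted set that further lacks P60 litters 1 and 4 on chips A and B and P60 litter 2 on chip C. On chip A the bacterial controls themselves were brighter at P60, with per-array 95th percentiles of 101 to 111 against 43.0 to 68.6 at P14 and P28. On chip B they were brighter in P60 litters 1 and 4, at 189 and 216, against 83.5 to 156 at P14 and P28. P60 litters 2 and 3 had 121 and 118 there. In bulk tissue, fewer cells of a type and less RNA per cell cannot be told apart.

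Of the 60 members, 35 (16 cadherin and 19 protocadherin probe sets, 23 genes) passed a filter on dim signals and were tested with limma, and 25 were not. With all litters no member passed an adjusted p of 0.05 in any comparison. Over all 20724 tested probe sets the share called was 0.00483% for P28 against P14, 0% for P60 against P28, 0.396% for P60 against P14 and 0.111% for the 3 ages together. Between P14 and P60, 12 members were lower at an unadjusted p under 0.05 (6 cadherin and 6 protocadherin probe sets), which is 34.3% of the 35 beside 7.93% of all tested probe sets, and 2 were higher (5.71% beside 7.81%). The 12 lower ones include 3 probe sets of the single gene Cdh13, and Cdh4 113847_at, which passed the filter only through its P14 litters. The 2 higher ones include Cdh13 168205_i_at, which passed it only through its P60 litters. The shares are therefore a description and not a test of the members. Between P14 and P28, 6 members were lower (17.1% beside 3.62%) and 1 was higher (2.86% beside 4.25%). Between P28 and P60 no member reached that level in either direction, beside 2.38% lower and 3.04% higher in the background. For 35 members, none on the step from P28 to P60 is close to the background share, so it does not date the lower signals. On that step 21 of the 35 tested members were still lower and 14 higher. Their median log2 change there was -0.05, beside -0.01 over all tested probe sets. The steps were not tested against each other.

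Counts of litters that did not overlap had the same lean, but they come from the same values and the same 35 members. They are another view of those values and not separate evidence. The P60 and P14 litters did not overlap for 11 tested members, with all P60 litters lower for 10 of them (28.6% beside 6.42% of all tested probe sets) and higher for 1 (2.86% beside 6.61%). The lower ones were probe sets of Cdh4, Cdh8, Cdh13 (3 of its probe sets), Pcdh10, Pcdh11x, Pcdh18, Pcdh19 and Pcdhb17. The higher one was Cdh13 168205_i_at. It passed the filter only through its P60 litters, as Cdh4 113847_at did through its P14 litters. For P28 against P14, 9 were lower without overlap (25.7% beside 8.41%) and 2 were higher (5.71% beside 9.45%). No tested member was free of overlap between P28 and P60, beside 4.46% lower and 3.90% higher among all. P14 litter 1 was the highest of the 10 litters for 10 of the 35 members, or 28.6%, beside 20.7% of all tested probe sets.

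When P14 litter 1 was left out, 2 members were called between P14 and P60, Cdh13 115922_i_at as lower and Pcdhb7 171011_r_at as higher, beside 2.40% of all tested probe sets. In the restricted set the first of these alone was called, beside 2.13%. For P28 against P14 no member was called without P14 litter 1 (0.125% of all) or in the restricted set (1.00%). These sets have fewer arrays but called more probe sets in all, 497 and 441 between P14 and P60 against 82 with all litters.

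Of the genes whose P60 litters all lay below the P14 litters, Cdh8, Pcdh10, Pcdh18 and Pcdh19 had a promoter in the RefSeq table used here. The 250 bases before the annotated start of each are shown, because each gene had a probe set with all P60 litters below all P14 litters, though none was called with all litters and another probe set of Pcdh10 was not lower. They lie, in build GRCm38.p6, at chr8:99416472-99416721 on the minus strand (Cdh8), chr3:45378148-45378397 on the plus strand (Pcdh10), chr3:49757317-49757566 on the minus strand (Pcdh18) and chrX:133688994-133689243 on the minus strand (Pcdh19). They are written 5' to 3' on the strand of the gene, and capitals mark matches to a GC box (GGGCGG) or a CCAAT box (CCAAT) on either strand.
Cdh8: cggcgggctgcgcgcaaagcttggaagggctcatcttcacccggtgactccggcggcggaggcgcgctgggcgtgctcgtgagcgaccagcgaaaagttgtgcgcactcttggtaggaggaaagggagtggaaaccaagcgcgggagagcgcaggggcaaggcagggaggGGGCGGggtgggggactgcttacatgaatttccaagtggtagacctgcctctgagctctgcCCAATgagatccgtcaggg
Pcdh10: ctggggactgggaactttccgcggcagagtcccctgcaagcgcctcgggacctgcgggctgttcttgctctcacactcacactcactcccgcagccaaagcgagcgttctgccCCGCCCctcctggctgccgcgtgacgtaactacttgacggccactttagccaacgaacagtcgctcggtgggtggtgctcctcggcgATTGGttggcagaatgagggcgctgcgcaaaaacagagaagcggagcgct
Pcdh18: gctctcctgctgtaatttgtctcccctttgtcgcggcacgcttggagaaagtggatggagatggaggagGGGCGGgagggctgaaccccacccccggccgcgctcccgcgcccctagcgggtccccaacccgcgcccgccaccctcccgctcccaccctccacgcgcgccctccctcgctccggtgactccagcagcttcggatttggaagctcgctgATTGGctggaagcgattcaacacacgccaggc
Pcdh19: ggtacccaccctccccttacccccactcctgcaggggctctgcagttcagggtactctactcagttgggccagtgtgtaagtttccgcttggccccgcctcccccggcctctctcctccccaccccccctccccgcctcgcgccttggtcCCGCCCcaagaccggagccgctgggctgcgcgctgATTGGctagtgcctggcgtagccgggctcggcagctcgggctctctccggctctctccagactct

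Each of these 4 windows held 1 GC box, a letter pattern bound by Sp factors, and 1 CCAAT box, bound by the NF-Y complex. A GC box stood in 32.7% and a CCAAT box in 33.8% of all 32851 promoter windows of the same length, and in 8 and 10 of the 17 windows of the 14 member genes in the table. The 4 windows were rich in CpG pairs, with 20, 22, 23 and 16 in the order shown, beside a median of 6 over all promoters and 16 over the 17 of the members. Their GC content was 63.2% to 69.2%, where the median of all promoters was 52.4%. None of the 17 member windows held a cyclic AMP response element (TGACGTCA, in 1.55% of all) or a TATA box (TATAAA, in 12.4%). All letters were searched on both strands, no pattern overlapped another in the 4 windows, and a match is a description of the letters only.

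Among type II cadherins the smallest p was that of Cdh8, which is known in the brain for a restricted pattern across cortical areas and for synapses of particular circuits. Probe set 138483_at on chip C read 3036, 2089 and 2024 at P14, then 1500, 1269 and 1083 at P28, and 1023, 830, 1160 and 1255 at P60. All later litters lay below the lowest P14 litter, and the P28 and P60 litters overlapped. The log2 change was -0.86 (SE 0.247) from P14 to P28, with an adjusted p of 0.397, and -1.12 (SE 0.231) from P14 to P60, with an adjusted p of 0.0592. The change to P60 was -0.93 without P14 litter 1 (adjusted p = 0.0561) and -0.82 in the restricted set (adjusted p = 0.0641). Of 20 alternative settings, 2 passed the threshold, without P60 litter 3 (adjusted p = 0.0473) and with array weights (adjusted p = 0.00656). Those 2 called 260 and 3621 of all tested probe sets, against 82 in the main fit. Over the 20 settings the adjusted p of 138483_at ran up to 0.187. The other Cdh8 probe set, 101701_at on chip A, was outside the filter and read 268, 273 and 200 at P14, 128, 205 and 132 at P28, and 196, 167, 182 and 187 at P60. Its P60 litters were below its P14 litters too, by little, with P14 litter 3 just above P60 litter 1.

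Cdh10, another type II cadherin of cortical neurons, was represented on chips A and B. On chip B 105823_at read 4766, 1835 and 2422 at P14, 1715, 2056 and 1779 at P28, and 1337, 1693, 2182 and 1240 at P60. The high P14 mean rested on litter 1 of that age, and the other litters overlapped across the ages. The change to P60 was -0.79 (SE 0.297, adjusted p = 0.235) with all litters, -0.41 without that litter and -0.13 in the restricted set. On chip A 94641_at went the other way at that litter, with 123, 290 and 307 at P14, 174, 201 and 191 at P28, and 174, 116, 240 and 172 at P60, and its change was -0.33 (SE 0.322) with all litters and -0.69 without P14 litter 1. The same litter was therefore the highest of 10 in the chip B probe set and below all but 1 in the chip A probe set of the same gene.

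For Cdh11, which marks mesenchymal cells and is also made by cortical neurons, the sign of the change depended on the litters used. Its chip C probe set 139147_at read 1094, 415 and 560 at P14, 565, 475 and 488 at P28, and 543, 436, 699 and 577 at P60. Its chip A probe set 100006_at read 415, 242 and 219, then 343, 222 and 219, then 226, 217, 284 and 143. P14 litter 1 was the highest of all 10 litters in both, and the remaining litters overlapped across the ages. The changes from P14 to P60 were -0.18 (SE 0.312) and -0.35 (SE 0.291) with all litters, and 0.19 and -0.10 without P14 litter 1.

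Cdh24, a type II cadherin with both alpha- and beta-catenin known as partners, was well above the bacterial level in all litters. Its probe set 133508_at read 4106, 5753 and 4937 at P14, 6811, 5728 and 7132 at P28, and 6491, 7050, 5069 and 8042 at P60. Most later litters were above the P14 litters, with overlap at 1 litter of each later age, and the change to P60 was 0.42 (SE 0.213, adjusted p = 0.348). Cdh6, which marks certain cortical areas and retinal circuits, read 74.1, 256 and 266 at P14, 165, 114 and 205 at P28, and 260, 161, 186 and 221 at P60 (101730_at). P14 litter 1 was its lowest litter, and its change to P60 of 0.17 (SE 0.37) became -0.30 without that litter. Cdh5, the cadherin of endothelial junctions, was outside the filter, with 222, 104 and 92.3 at P14, 117, 133 and 85.2 at P28 and 215, 82.8, 83 and 153 at P60, and its litters overlapped at all ages. The single Cdh9 probe set had means below the bacterial level at all ages, and Cdh7 and Cdh18 had no litter above it.

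**Figure D2:**
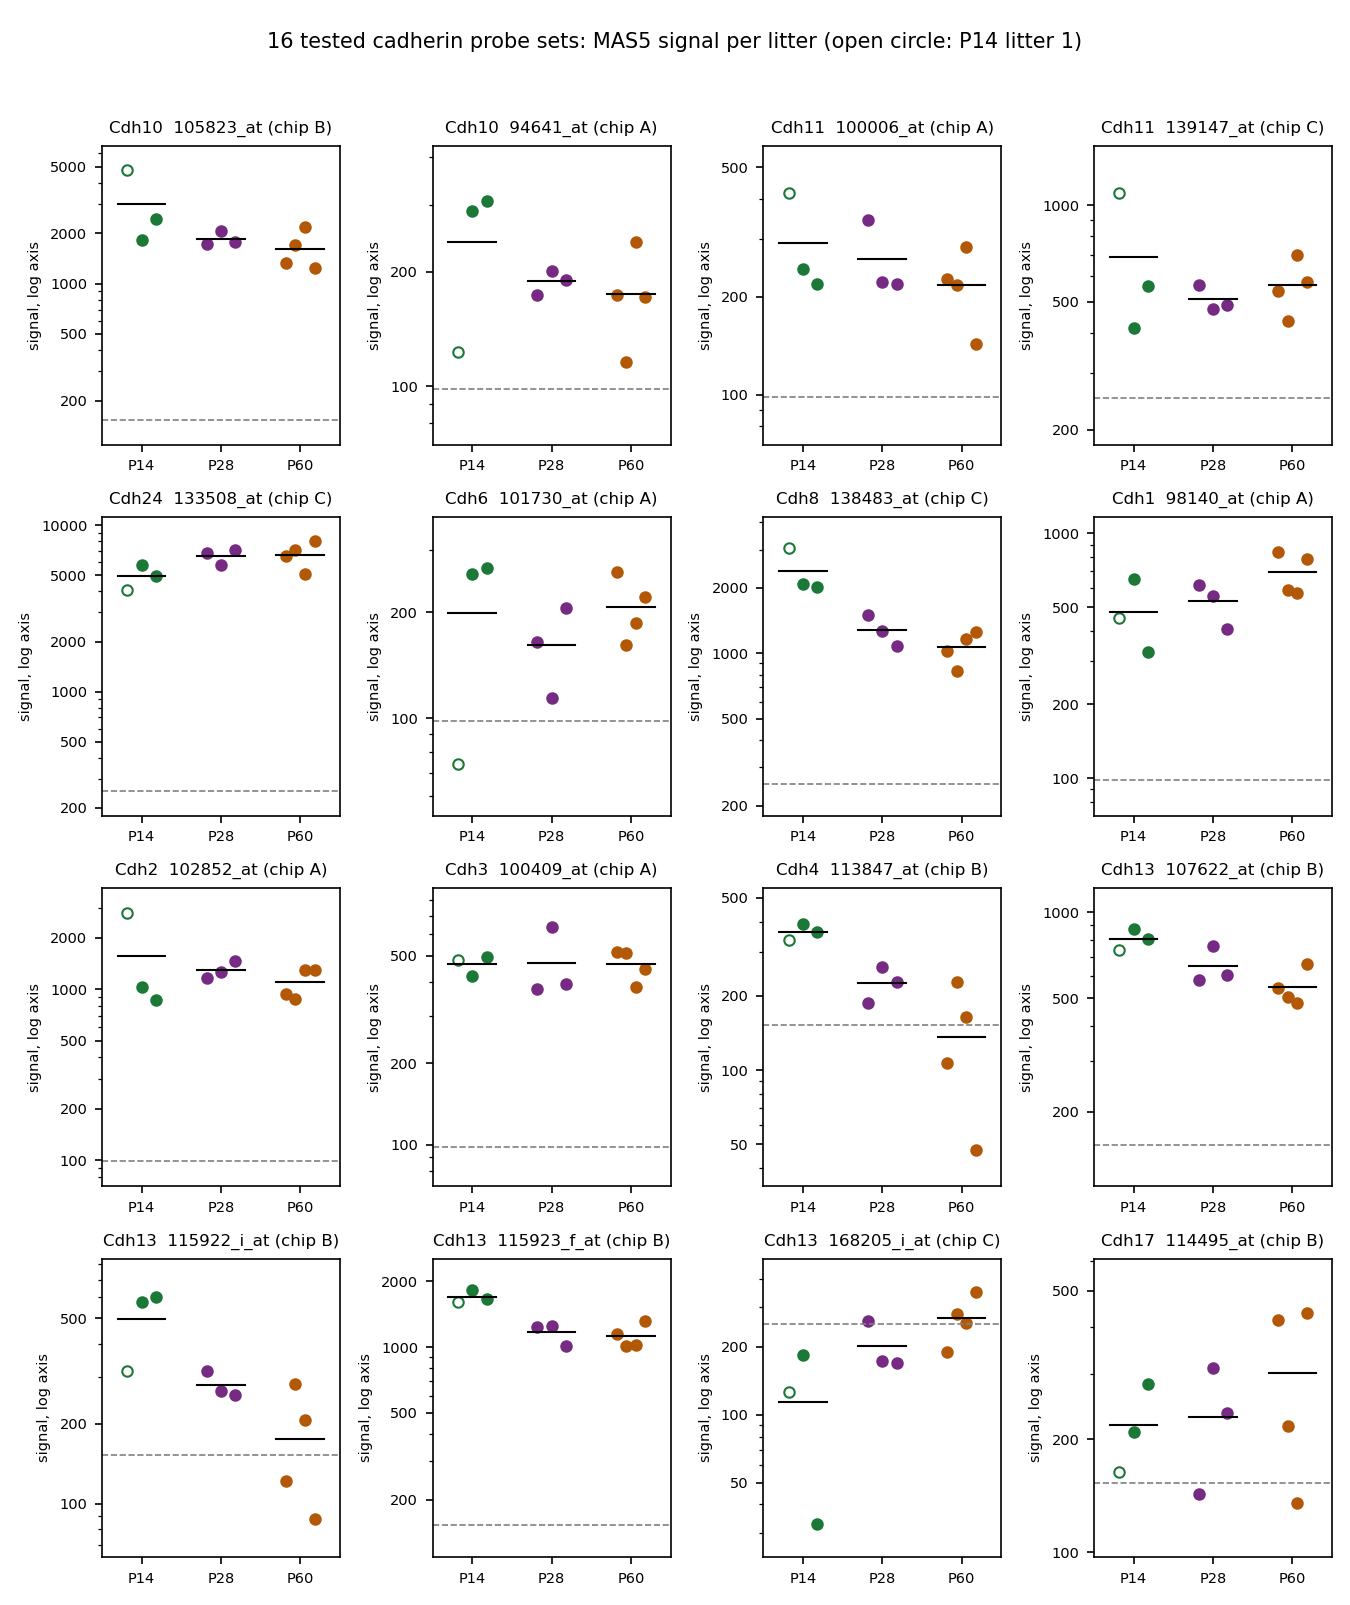
MAS5 signal (vertical axes, log scale, each panel with its own range) of the 16 tested cadherin probe sets by age (horizontal axes), with 1 circle per litter, the mean of each age as a bar, P14 litter 1 as an open circle and the bacterial level of the chip as a dashed line. For Cdh8 138483_at, Cdh4 113847_at and 3 of the 4 Cdh13 panels every P60 circle lies below every P14 circle, and in Cdh2, Cdh8, Cdh10 105823_at and both Cdh11 panels the open circle stands above all others. It is the lowest for Cdh6 and Cdh24.

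Among type I cadherins, Cdh4 (R-cadherin, made by subsets of neurons in the developing brain) was lower with age. Its only tested probe set, 113847_at on chip B, read 337, 393 and 363 at P14, 187, 262 and 228 at P28, and 107, 229, 163 and 47.2 at P60. No later litter reached the lowest P14 litter, and 2 of the 4 P60 litters were below the bacterial level of 153. The change was -0.58 (SE 0.365, adjusted p = 0.758) to P28 and -1.21 (SE 0.342, adjusted p = 0.134) to P60. It was -1.26 without P14 litter 1 and -0.79 for the restricted set, which leaves out the lowest P60 litters. With only 1 litter outside P14 above the chip median, this probe set entered the test through its P14 signal. The other 3 Cdh4 probe sets, on chip A, were outside the filter and had age means below the bacterial level at all ages. One of them, 95370_at, had the opposite order, with 3.15 to 7.11 at P14 and 17.0 to 48.4 at P60, far under the bacterial level of 98.4.

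Cdh2 (N-cadherin), the main classical cadherin of synapses in the forebrain, read 2814, 1038 and 868 at P14, 1170, 1271 and 1464 at P28, and 942, 875, 1306 and 1301 at P60 (102852_at, chip A). Apart from P14 litter 1 all litters lay between 868 and 1464, and both other P14 litters were below every P28 litter. The change to P60 was -0.32 (SE 0.342, adjusted p = 0.671) with all litters, 0.19 (adjusted p = 0.643) without P14 litter 1 and 0.17 for the restricted set. Cdh1 (E-cadherin), best known from epithelia, read 451, 649 and 327 at P14, 618, 557 and 408 at P28, and 836, 586, 570 and 784 at P60, with overlap between the ages. Its change to P60 was 0.54 (SE 0.253, adjusted p = 0.326), and 0.30 in the restricted set, which leaves out its 2 highest litters. Cdh3 (P-cadherin) had means of 465 ± 39.3 (SD, n = 3), 469 ± 145 (SD, n = 3) and 464 ± 63.2 (SD, n = 4) at the 3 ages, and the change to P60 was -0.01 (SE 0.217).

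Cdh15 (M-cadherin), which is known from muscle and from cerebellar granule cells, was another type I member with higher P60 signals. Its chip A probe set 103213_at, outside the filter, read 16.8, 19.7 and 84.3 at P14, 63.9, 73.9 and 50.4 at P28, and 183, 123, 138 and 155 at P60. Every P60 litter was above every younger litter, and the exact two-sided permutation p for P60 against P14 was 0.0571, the smallest that 3 against 4 litters allow. The P60 arrays of chip A were also those with brighter bacterial controls, so each P60 value stood above its own array's bacterial level of 101 to 111 by less than a factor of 2. Whether that background had a part in the rise was not tested. The other Cdh15 probe set, 161366_r_at, overlapped between the ages, with 38.0 to 235 at P60.

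Cdh13 (T-cadherin) has no catenin-binding tail and is held to the membrane by a lipid anchor, and in the cortex it is known from axon growth and from inhibitory and excitatory synapses. It had 6 probe sets, and the 3 tested ones on chip B were all lower at P60. Probe set 115923_f_at read 1616, 1816 and 1657 at P14, 1232, 1252 and 1017 at P28, and 1143, 1016, 1020 and 1315 at P60. The lower level was reached by P28, all later litters lay under the P14 litters, and the change was -0.52 (SE 0.183) to P28 and -0.58 (SE 0.171, adjusted p = 0.148) to P60. Probe set 107622_at read 739, 873 and 806 at P14, 580, 764 and 604 at P28, and 542, 507, 481 and 661 at P60. Here the P28 litters overlapped those of P14 and the P60 litters did not, with a change of -0.52 (SE 0.183, adjusted p = 0.21) to P60.

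The last of these, 115922_i_at, was the dimmest and showed the greatest log2 change of Cdh13, with 316, 575 and 600 at P14, 317, 266 and 257 at P28, and 122, 282, 207 and 87.8 at P60. P14 litter 1 was here the low P14 litter, level with the highest P28 litter. The change to P60 was -1.29 (SE 0.327, adjusted p = 0.111) with all litters. Without P14 litter 1 it was -1.55 (adjusted p = 0.0414), and in the restricted set, which also lacks the 2 lowest P60 litters, it was -1.11 (adjusted p = 0.0396). The other Cdh13 probe sets did not all go this way. On chip C 168205_i_at read 126, 184 and 32.6 at P14, 259, 173 and 169 at P28, and 189, 280, 254 and 351 at P60, so its P60 litters were all higher, by 1.09 (SE 0.416, adjusted p = 0.236), with only the P60 mean above the bacterial level of 252. Outside the filter, 104743_at read 75.5, 191 and 205, then 180, 191 and 147, then 54.4, 76.5, 67.5 and 23.0, with all P60 litters below the P28 litters, and 164646_at overlapped at all ages. The suffixes i, f and r mark probe sets chosen under relaxed rules or shared between transcripts, and 9 of the 35 tested members carry such a letter.

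Cdh17, an intestinal cadherin with a short tail, read 164, 210 and 282 at P14, 143, 311 and 235 at P28, and 418, 217, 135 and 435 at P60. Its high P60 litters were 1 and 4, which the restricted set leaves out, and the change of 0.30 (SE 0.371) with all litters became -0.39 there. Cdh16, a kidney cadherin, was below the bacterial level in all litters.

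In the delta protocadherins, Pcdh11x on the X chromosome, a homophilic adhesion protein of the brain, had the smallest p. Probe set 135776_at on chip C read 3715, 2826 and 1943 at P14, 1740, 1629 and 1153 at P28, and 1257, 1094, 1331 and 1508 at P60. Both later ages lay wholly below P14, and P14 litter 1 was again the highest litter. The change was -0.86 (SE 0.266, adjusted p = 0.432) to P28 and -1.06 (SE 0.249, adjusted p = 0.0885) to P60, and -0.84 (adjusted p = 0.0926) to P60 without P14 litter 1. The other Pcdh11x probe set on the same chip, 169181_at, was not lower, with 324, 468 and 360 at P14, 618, 417 and 499 at P28, and 561, 505, 414 and 530 at P60, and a change to P60 of 0.36 (SE 0.261).

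Pcdh19, also X-linked and known as a gene of epilepsy with onset in infancy, had the tightest litters. Its probe set 116917_at, which has a standard design, read 853, 902 and 858 at P14, 579, 637 and 599 at P28, and 486, 584, 626 and 659 at P60. All P14 litters, P14 litter 1 among them, lay within 853 to 902, and no later litter was above 659. The change was -0.49 (SE 0.18, adjusted p = 0.506) to P28 and -0.53 (SE 0.169, adjusted p = 0.17) to P60. It was -0.54 without P14 litter 1 and -0.50 for the restricted set, so its size was nearly the same in all 3 sets of arrays.

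Pcdh10, known from the amygdala and from activity-driven synapse elimination, gave different answers in its 2 tested probe sets, both on chip B. Probe set 164244_at read 697, 885 and 766 at P14, 308, 602 and 700 at P28, and 341, 515, 657 and 435 at P60. Its P60 litters were all below P14, while P28 litter 3 reached the P14 range, and the change to P60 was -0.65 (SE 0.274, adjusted p = 0.281). Probe set 105790_at read 519, 2522 and 1930 at P14, 1510, 1736 and 1590 at P28, and 1592, 1326, 1534 and 1306 at P60. In this case P14 litter 1 was the lowest of all litters, at less than the other P14 litters by more than a factor of 3, and those were above every later litter. Its change to P60 was 0.06 (SE 0.393) with all litters, -0.60 (adjusted p = 0.0904) without P14 litter 1 and -0.61 (adjusted p = 0.108) in the restricted set.

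The delta protocadherin Pcdh18 had 1 tested probe set, 166351_f_at on chip C, with 1174, 622 and 709 at P14, 528, 386 and 526 at P28, and 503, 505, 542 and 475 at P60. The later litters were all below P14, and P14 litter 1 was the highest. The change to P60 was -0.63 (SE 0.266, adjusted p = 0.281) with all litters and -0.37 without that litter. For Pcdh7, which binds protein phosphatase subunits with its tail, 107304_at on chip B read 307, 461 and 659 at P14, 397, 333 and 395 at P28, and 254, 297, 381 and 122 at P60. Its litters overlapped at P14 litter 1, and the change to P60 was -0.75 (SE 0.318, adjusted p = 0.284), -0.997 (adjusted p = 0.132) without that litter and -0.63 (adjusted p = 0.187) in the restricted set.

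Pcdh9, broadly made by cortical neurons, was split among its probe sets. On chip C 129028_at read 5384, 2541 and 2983 at P14, 1888, 3617 and 2864 at P28, and 2267, 1559, 3011 and 2077 at P60. Probe set 166821_r_at read 2381, 1104 and 1088, then 1080, 820 and 1071, then 971, 1404, 685 and 860. In both P14 litter 1 was the highest by far, and their changes to P60 of -0.66 (SE 0.309) and -0.56 (SE 0.311) became -0.34 and -0.20 without it. The remaining tested Pcdh9 probe set, 171439_at, had age means below the bacterial level at all ages and a change of 0.32 (SE 0.396).

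Of the 4 Pcdh17 probe sets, 107483_at read 512 to 621 in 9 of the litters and 376 in P60 litter 2, with a change to P60 of -0.13 (SE 0.195). Another, 117096_at, read 304, 284 and 239 at P14, 258, 335 and 258 at P28, and 303, 366, 409 and 393 at P60, a change of 0.35 (SE 0.212, adjusted p = 0.434) with overlap at P60 litter 1. The last tested one, 129896_at, had means of 190 ± 109 (SD, n = 3), 170 ± 111 (SD, n = 3) and 76.2 ± 20.9 (SD, n = 4), all below the bacterial level of 252. Pcdh17 is known from sorting of synapses in corticobasal circuits, and its probe sets gave no common direction. Pcdh1 was outside the filter, with means near the bacterial level of 153 in 110082_at (176 ± 52.6 and 188 ± 57.7 with n = 3, and 154 ± 17.8 with n = 4, SD) and all litters below it in 116109_at.

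**Figure D3:**
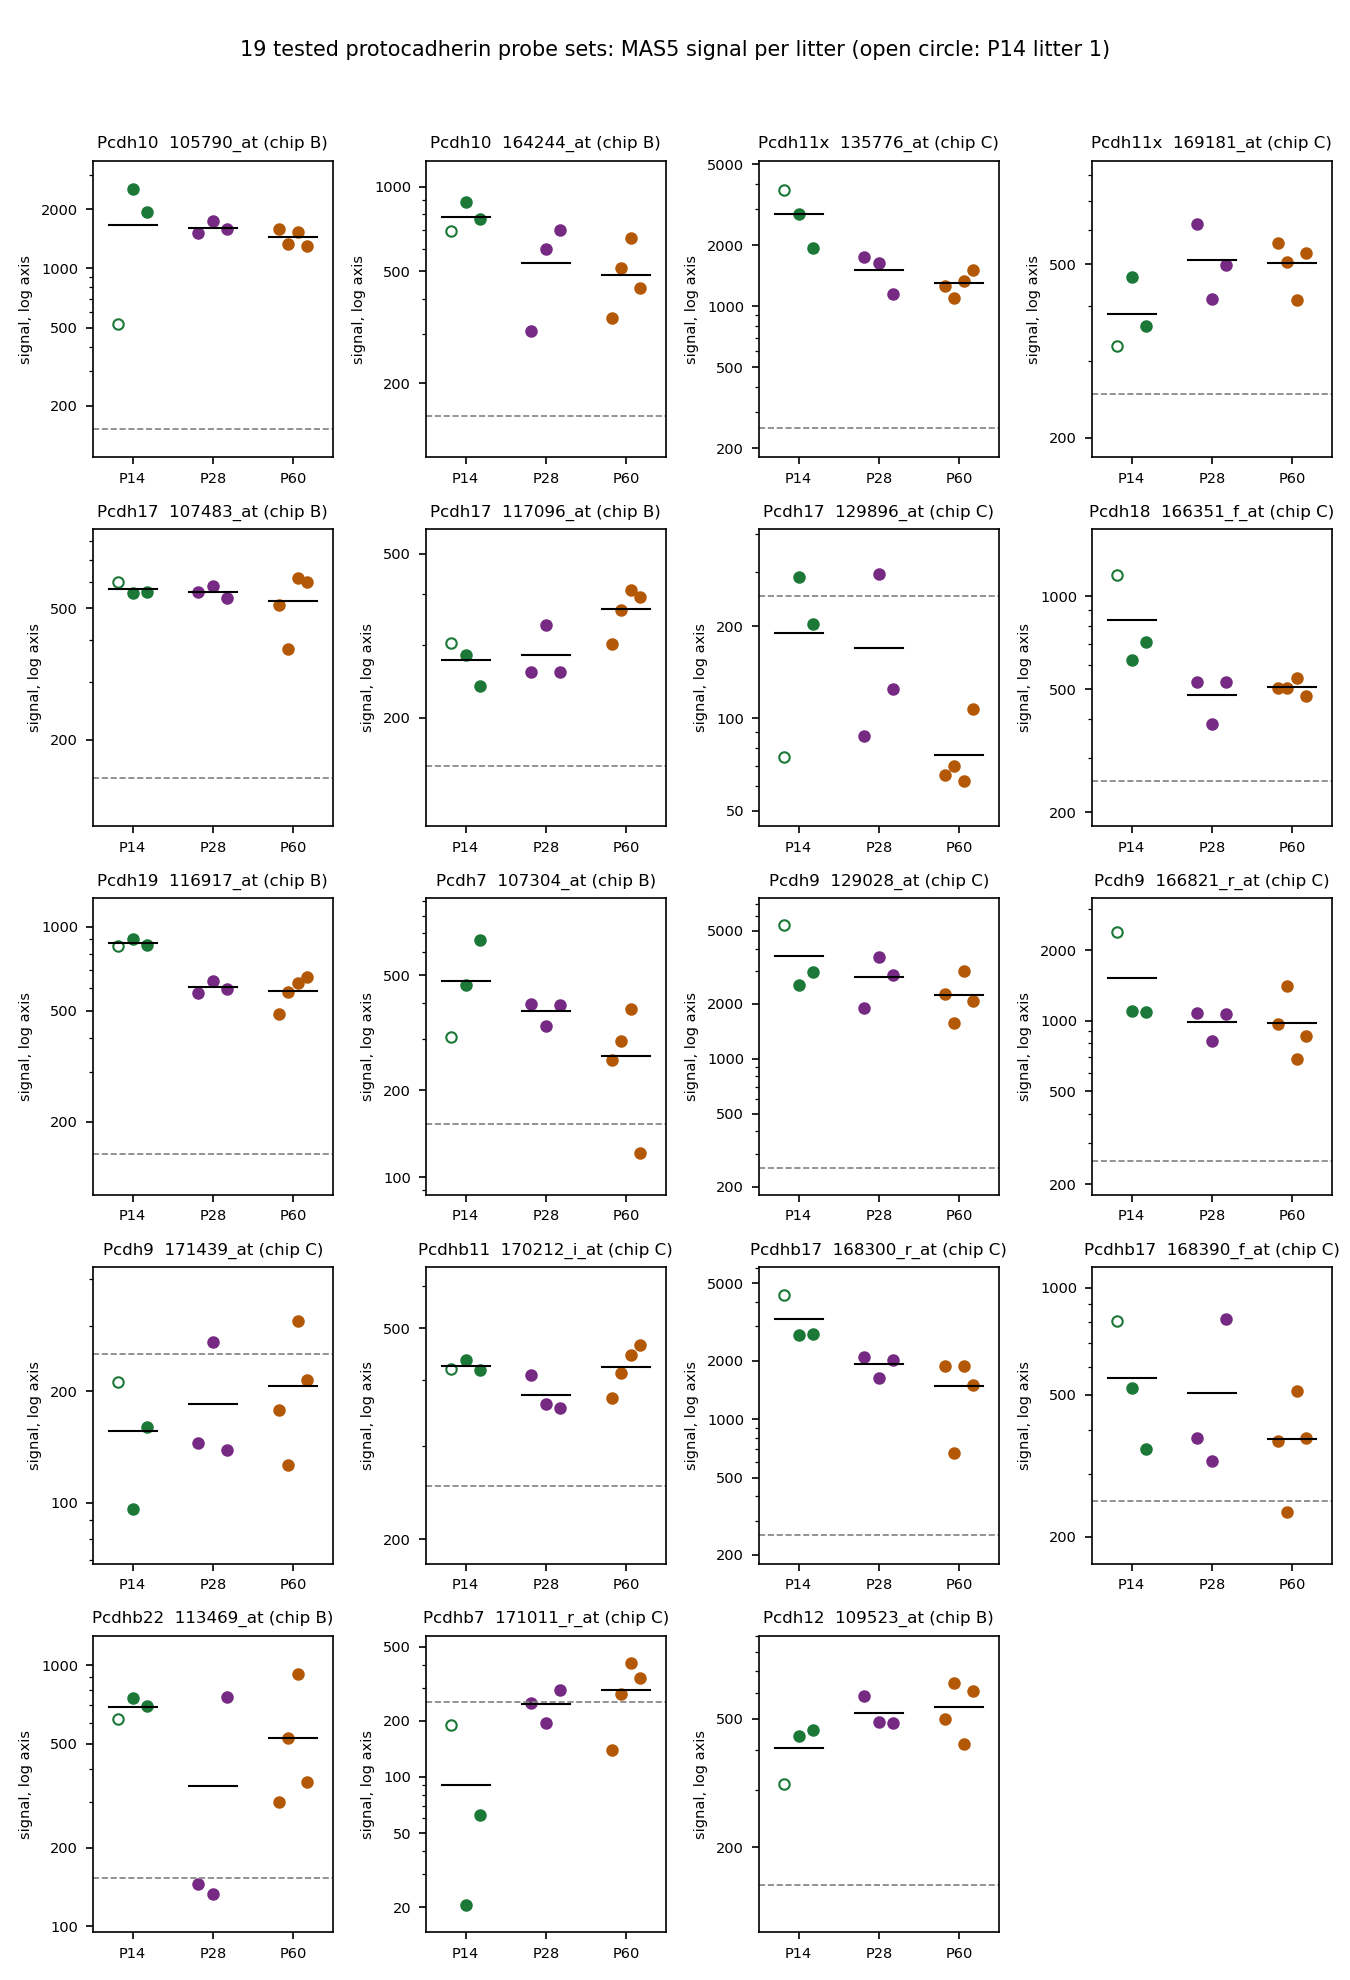
MAS5 signal (vertical axes, log scale, each panel with its own range) of the 19 tested protocadherin probe sets by age (horizontal axes), with 1 circle per litter, the mean of each age as a bar, P14 litter 1 as an open circle and the bacterial level of the chip as a dashed line. For Pcdh11x 135776_at, Pcdh19, Pcdh18, Pcdhb17 168300_r_at and Pcdh10 164244_at all P60 circles lie below all P14 circles. The open circle is the lowest of its panel for Pcdh10 105790_at, Pcdh11x 169181_at and Pcdh12, and the highest for Pcdh18, Pcdh11x 135776_at, Pcdhb17 168300_r_at, and Pcdh9 129028_at and 166821_r_at.

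All clustered members belonged to the beta cluster, whose genes are single exons that are nearly alike, so that the signal of a probe set can come from a neighbour in the cluster. Pcdhb17 168300_r_at read 4340, 2724 and 2745 at P14, 2093, 1636 and 2011 at P28, and 1882, 669, 1874 and 1492 at P60. All later litters were below P14, and the change was -0.73 (SE 0.35) to P28 and -1.19 (SE 0.327, adjusted p = 0.124) to P60. It was -0.97 without P14 litter 1 and -0.64 (adjusted p = 0.109) in the restricted set, which lacks P60 litter 2, the lowest. The other Pcdhb17 probe set, 168390_f_at, overlapped at all ages, with a change to P60 of -0.50 (SE 0.378) that was -0.04 in the restricted set.

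Pcdhb7 had a tested probe set with a higher signal later on. Probe set 171011_r_at on chip C read 190, 20.5 and 62.2 at P14, 249, 196 and 291 at P28, and 140, 278, 408 and 340 at P60. All P28 litters were above all P14 litters, and P60 litter 1 was below P14 litter 1. The change was 1.29 (SE 0.502, adjusted p = 0.542) to P28 and 1.44 (SE 0.469, adjusted p = 0.175) to P60. Without P14 litter 1 the change to P60 was 1.94 (adjusted p = 0.0488), and in the restricted set 1.94 (adjusted p = 0.0671). All litters at P14 and the P28 mean were below the bacterial level of 252, so the log2 size depends on the constant added before the logarithm. The other Pcdhb7 probe set, 107276_at on chip B, was outside the filter, with 95.3, 24.1 and 29.0 at P14, 13.4, 8.14 and 6.83 at P28, and 99.5, 9.44, 65.5 and 40.2 at P60. Its P28 litters were lower than those of P14 without overlap, its P60 litters overlapped P14, and all lay under the bacterial level of 153. Pcdhb22 113469_at read 623, 748 and 696 at P14, 145, 133 and 755 at P28, and 299, 525, 925 and 356 at P60, so that P28 held both the lowest litters and 1 above all P14 litters. Its change was -1.24 (SE 0.507, adjusted p = 0.59) to P28 and -0.47 (SE 0.474) to P60. Pcdhb11 170212_i_at stayed between 354 and 466 in all litters.

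Pcdh12, known from endothelial junctions, was tested with 109523_at on chip B, which read 313, 441 and 459 at P14, 585, 487 and 483 at P28, and 497, 644, 417 and 609 at P60. P28 was wholly above P14 and P60 was not, and the change to P60 was 0.37 (SE 0.21, adjusted p = 0.401). Its other probe set was below the bacterial level in all litters.

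Of the 25 members outside the filter, 4 reached the smallest exact permutation p of 0.0571 for P60 against P14, and over all 25 the p ran up to 0.971. How many of all probe sets outside the filter reach it was not counted, so the 4 are a description only. These were Cdh8 101701_at and Cdh15 103213_at, given above, and Cdh4 95370_at and Cdh7 131864_at, whose litters were all below the bacterial level. Cdh7 read 24.4, 34.5 and 33.5 at P14, 37.5, 17.6 and 39.9 at P28 and 110, 78.4, 52.7 and 52.9 at P60, against a bacterial level of 252. With the dim probe sets counted in, 11 of 60 members were lower at P60 without overlap (18.3% beside 4.51% of all probe sets) and 4 were higher (6.67% beside 7.54%). All 4 higher ones were cadherins, with at most the P60 mean above the bacterial level.

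Set side by side, the cadherins and the protocadherins had similar counts, and the difference between them was not tested. From P14 to P60, 11 of 16 tested cadherin probe sets were lower, with a median log2 change of -0.33, and 13 of 19 tested protocadherin probe sets were lower, with a median of -0.50. Over all tested probe sets 9364 were lower and 11360 higher, with a median of 0.06. Without P14 litter 1 the medians were -0.20, -0.34 and 0.02, and in the restricted set -0.26, -0.18 and 0.01, so which class was lower depended on the arrays used. With the dim probe sets counted in, the medians were -0.01 for cadherins, -0.19 for protocadherins and 0.11 for all. From P14 to P28 they were -0.18, -0.17 and 0.03, and from P28 to P60 -0.09, -0.05 and -0.01.

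By subclass, the median change to P60 was -0.33 for 7 type II probe sets, -0.17 for 4 type I probe sets, -0.52 for 5 of the other cadherins (4 of them Cdh13), -0.56 for 13 delta and -0.47 for 5 clustered protocadherin probe sets. Without P14 litter 1 these medians were, in the same order, -0.30, 0.10, -0.57, -0.37 and -0.22. In the restricted set they were -0.13, 0.06, -0.70, -0.38 and -0.04. The filter bears on these numbers, since 4 tested members (Cdh4 113847_at, Cdh6, Cdh10 94641_at and Pcdh17 129896_at) had fewer than 3 litters above the chip median outside P14. Outside P60 the same held for Cdh13 168205_i_at, Cdh17, Pcdh9 171439_at, Cdh6 and Cdh10 94641_at. Probe sets of a gene often went different ways: of the 8 genes with at least 2 tested probe sets, 3 (Cdh10, Cdh11 and Pcdhb17) had all of them on the same side from P14 to P60.

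**Figure D4:**
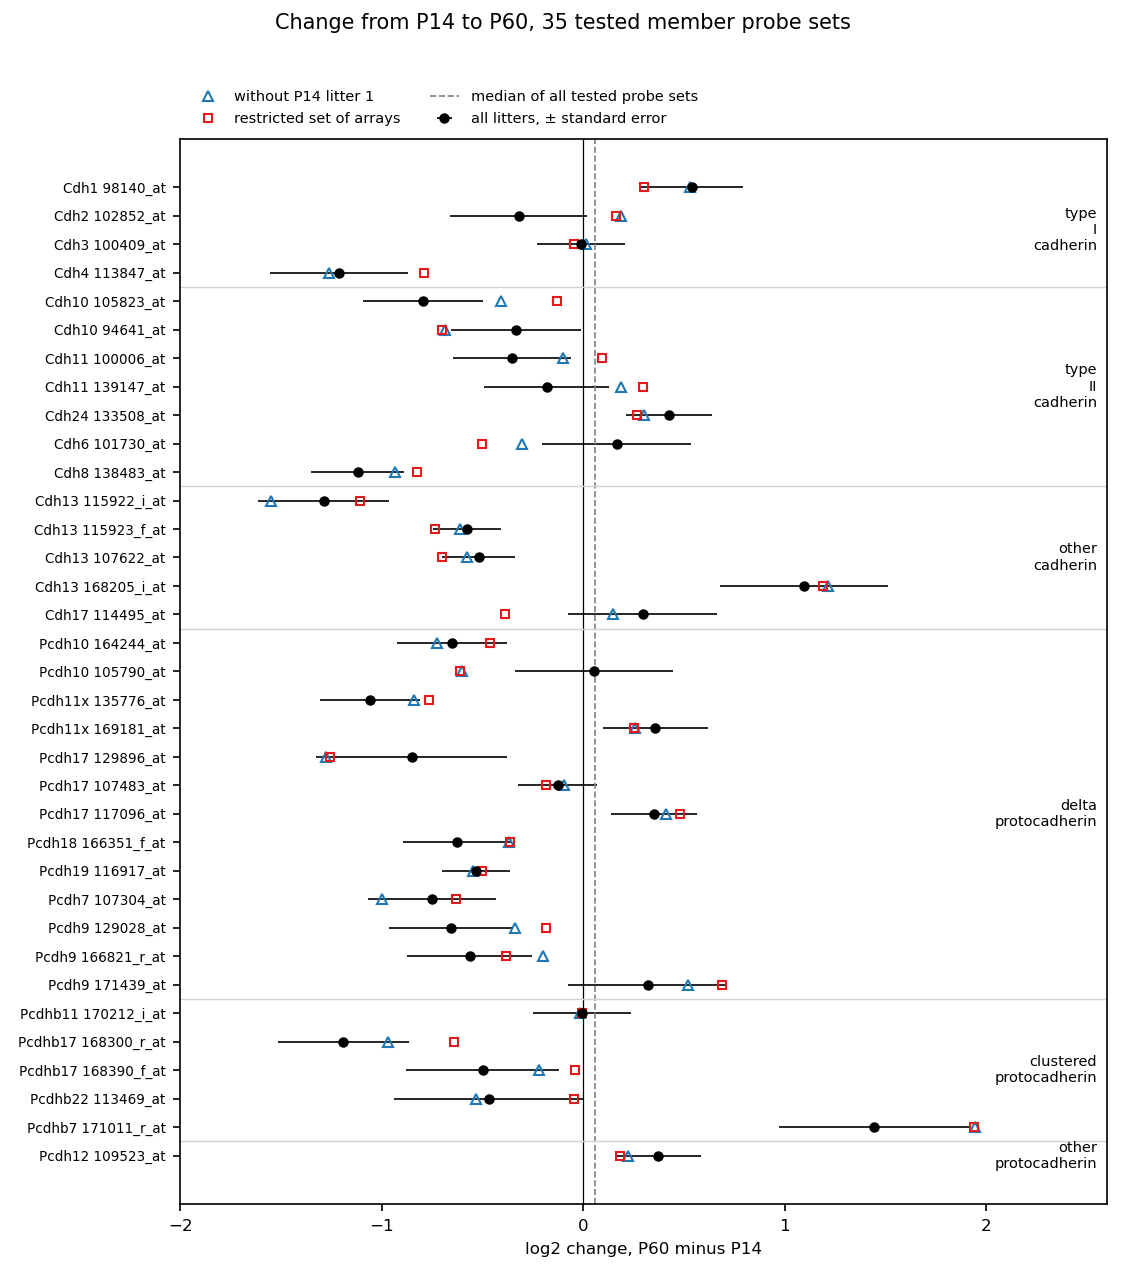
Log2 change of signal from P14 to P60 (horizontal axis) for the 35 tested member probe sets (vertical axis, grouped by class), with all litters as dots and standard errors as bars, without P14 litter 1 as triangles and in the restricted set as squares. The dashed line is the median of all tested probe sets, 0.06. Of the dots, 24 lie left of 0 and 11 right of it, and for Cdh2, Cdh3 (by little), Cdh6, Cdh11 139147_at and Pcdh10 105790_at the triangle lies on the other side of 0 from the dot.

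The genes that work with cadherins showed no call with all litters. Of 13 catenins and adaptors, all tested, 6 were lower and 7 higher at P60, with a median of 0.00, which was 0.05 in the restricted set and 0.20 without P14 litter 1. Ctnnb1 (beta-catenin), which links the cadherin tail to alpha-catenin and also carries Wnt signals, had a mean signal of 5726 at P14, 3872 at P28 and 3354 at P60, a change of -0.80 (SE 0.267, adjusted p = 0.19), and -0.31 in the restricted set. Ctnna2, the neuronal alpha-catenin, changed by -0.78 (SE 0.344, adjusted p = 0.3), and by -0.25 without P14 litter 1. The p120 family members Ctnnd1 and Ctnnd2, which hold cadherins at the surface, changed by 0.18 (SE 0.25) and -0.32 (SE 0.265). The other large values of the list were -0.98 for Ctnnal1, 0.74 for Plekha7, 0.73 for Arvcf and 0.37 for Jup, none with an adjusted p under 0.05. The sum of the 13 signals was 33624 in P14 litter 1 and between 18380 and 21802 in the other litters.

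Among the other cadherin superfamily genes, 11 of the 18 on the arrays were tested, with 4 lower, 7 higher and a median of 0.21, which was -0.16 without P14 litter 1. The giant cadherins Fat1 and Fat2 and the planar polarity gene Celsr3 had the lowest values, -0.39, -0.39 and -0.34, and Dsc2, Cdhr1 and Cdhr4 the highest, 0.55, 0.51 and 0.48. Of the partners of protocadherins, 13 were tested, 7 lower and 6 higher, with a median of -0.02. Several belong to the WAVE complex, which drives branched actin and is bound by some delta protocadherin tails. Of its genes Abi2 changed by -1.01 (SE 0.282, adjusted p = 0.133) and Wasf1 by -0.85 (SE 0.287, adjusted p = 0.194), while Cyfip2 changed by 0.67 (SE 0.309, adjusted p = 0.32). The kinase Fyn, which binds clustered protocadherins, read 1499, 1591 and 1696 at P14, 1273, 1283 and 1178 at P28, and 831, 870, 1107 and 687 at P60. Its ages followed each other downwards with no overlap between any of them. Fyn changed by -0.86 (SE 0.19, adjusted p = 0.0808) and fell without P14 litter 1, by 0.90 (adjusted p = 0.0316). In the restricted set its change was -0.72 and no longer passed (adjusted p = 0.0596). Ptk2b (Pyk2), a kinase held in check by clustered protocadherins, read 3259, 981 and 1141 at P14, against 1925 to 3778 in all later litters, so that P14 litter 1 alone of its age lay among them. Its level changed by 0.83 (SE 0.367, adjusted p = 0.301) with all litters, and rose by 1.36 (adjusted p = 0.0175) without P14 litter 1 and by 1.65 (adjusted p = 0.0048) in the restricted set. Ppp1ca, a phosphatase subunit bound by Pcdh7, changed by 0.27 (SE 0.223).

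Summed marker signals of some other cell types also differed between the ages, and none of these sums was tested. Each sum covers only the markers that passed the filter, with 1 probe set per gene. The summed signal of 6 of the 8 meningeal and fibroblast markers was 11348 to 12210 at P14, 7410 to 8451 at P28 and 6500 to 8580 at P60. The P14 litters were thus apart from all others. The genes of this sum did not all go the same way: of 6 tested, 4 were lower than at P14 and 2 were higher by P60. Their median log2 change was -0.39, and -0.27 without P14 litter 1. For P28 against P14 the counts were also 4 and 2, with medians of -0.22 and -0.10. The sum of 2 of the 4 choroid plexus markers was lower at P14 than later, with 384 to 713, 924 to 1536 and 797 to 1178. For the 4 oligodendrocyte markers on the arrays, all tested, the sum was 3496 to 6574, 7443 to 12509 and 8769 to 12969. Of the 8 endothelial markers, 7 were on the arrays and 5 were summed. They gave 940 to 2373, 1469 to 1733 and 1629 to 1820, with P14 litter 1 the lowest and overlap between the ages. The sum of 3 of the 4 microglial markers overlapped as well, with 1645 to 2417, 2264 to 2508 and 1929 to 2763. Per gene, 5 of the 6 neuronal markers were lower at P60 than at P14, with a median log2 change of -0.21. This median was -0.44 when P14 litter 1 was dropped, and -0.37 for the restricted set. For the 6 astrocyte markers (4 lower) the medians were, in the same order, -0.37, -0.09 and -0.10. For 3 neocortical excitatory neuron markers (2 lower) they were -0.14, 0.08 and 0.18. Those of all 35 tested members were -0.35, -0.30 and -0.18. The part of these cell types in the lower signals of Cdh8, Cdh13, Pcdh18, Pcdh19 and the other members was not tested.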

How the data were processed

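Expression was measured in V1 of 10 litters on 30 Affymetrix arrays. The authors deposited linear signal intensities, computed by MAS5 (no version stated) per the submitters' processing notes. Each deposited array has a 2% trimmed mean of 500, so arrays were used as scaled. Sample titles write litter 1 ahead of the age too, and the number after the age was used. Gene symbols came from the platform annotation, updated through the gene ID.

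Signals were tested as log2(signal + the 20th percentile of the chip), a constant of 38.6, 57.8 and 44.0 on chips A, B and C. Probe sets above the chip median on at least 3 arrays were fitted per chip with limma 3.58.1 in R 4.3.3 (lmFit and eBayes with a variance trend, age alone in the model), with p-values adjusted by Benjamini-Hochberg over all 20724 of the 3 chips. The scripts were tested on simulated data with shifts at P60 larger than any change of a member given here. That test therefore does not show how well changes of the members' sizes would be found. Probe sets outside the filter have an exact two-sided permutation test over litters.

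The members, lists, restricted set and named genes were chosen with earlier results of these data known. Named were members called in any set of arrays, those without overlap between P14 and P60, the largest changes, a list of brain cadherins and protocadherins, and from other lists the called genes, main catenins and 3 largest changes each way. Litter numbers did not pair the ages: deviations of same-numbered litters correlated at -0.063 to 0.132, and 1 of 9 pairs was over 0.1. Promoters are from RefSeq. The number of arrays limits the precision.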

Additional observations from a re-analysis of the deposited data

How the results depend on the processing

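The median changes of tested cadherins and protocadherins from P14 to P60 stayed below 0 in all alternatives run, while the number of calls varied. These medians were always taken over probe sets tested in the main fit. Some alternatives, such as no filter or adjustment within each chip, therefore could not move them. With the dim probe sets counted in, the medians were -0.01 for cadherins (17 lower, 14 higher) and -0.19 for protocadherins (18 lower, 11 higher). The median change of tested cadherins from P14 to P60, -0.33 with all litters, was -0.23 with array weights, -0.40 with quantile normalization, -0.27 with the replicate block and -0.26 in the restricted set, and -0.46 to -0.20 when single litters were left out. From P14 to P28 it was -0.18, against -0.26 with array weights and -0.29 to -0.15 over left-out litters. For protocadherins the change to P60 was -0.50, against -0.18 in the restricted set and -0.56 to -0.34 over left-out litters, and the change to P28 ran from -0.29 to -0.10. Array weights, which gave P14 litter 1 weights of 0.105 to 0.354, called 12 of the 35 members between P14 and P60 and 5 between P14 and P28. They also called 10 pathway genes, and none of these was called with equal weights. Over all 20724 tested probe sets the weights called 3621 between P14 and P60 and 1163 between P14 and P28, so the rise in calls was not confined to the members. The restricted set called 1 member and 1 pathway gene, beside 441 of all tested probe sets. Leaving out single litters called 0 to 2 members (2 without P14 litter 1, 1 without P60 litter 3) and 0 to 2 pathway genes. Over all tested probe sets it called 0 to 497.

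Over all probe sets, 1 was called between P14 and P28 with all litters, 5 with adjustment within each chip, 1163 with array weights, 2 with the constant at the bacterial level, 208 in the restricted set, 0 with only the ages compared and 0 with the replicate block, and 0 to 26 over left-out litters. Between P14 and P60 the 82 calls became 3621 with array weights, 441 in the restricted set, 0 with only the ages compared and 0 with the replicate block, and 0 (without P14 litter 2) to 497 over left-out litters. Between P28 and P60 the leave-outs gave 0 or 1. For the 3 ages together the 23 calls became 3024 with array weights, 15 with quantile normalization, 221 in the restricted set, 0 with the replicate block and 0 to 130 over left-out litters. The smallest exact p was reached by 4 to 8 members outside the filter over left-out litters, where fewer litters also raise that smallest p.

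Some changes from P14 to P60 turned sign. Pcdh10 105790_at was -0.44 with array weights, -0.61 in the restricted set and -0.60 to 0.48 over left-out litters. Cdh2 was 0.20, 0.17 and -0.64 to 0.19, Cdh11 139147_at 0.042, 0.30 and -0.47 to 0.19, and Cdh6 -0.23, -0.50 and -0.30 to 0.41, in the same order. Cdh6 was also -0.0067 with quantile normalization, and Cdh11 100006_at 0.10 and Cdh17 -0.39 in the restricted set. Cdh3 was 0.012 with array weights, 0.0029 with the replicate block and -0.076 to 0.072 over left-out litters, Pcdhb11 -0.050 to 0.051, and Pcdh17 107483_at -0.20 to 0.010. The cause of these changes was not tested. Of the other values for single probe sets and gene-list medians under an alternative, 660 counted as unchanged, and 16 passed the threshold. For probe sets, unchanged meant the same direction and side of the threshold. For the list medians it meant a shift below a standard error. The catenin median, among the 660, went from 0.0012 to -0.17 with the mean over probe sets.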
